A study of Homo sapiens with 4 samples.

Results

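The extracellular matrix genes described here are 10 of the 20372 genes in the deposited count table of TPC1 cells, namely the thrombospondins THBS1, THBS2, and THBS3, fibronectin (FN1), the matricellular genes SPARC, TNC (tenascin C), and POSTN (periostin), the thrombospondin receptor CD47, FBLN1 (fibulin 1), and FBN1 (fibrillin 1). They were chosen by gene symbol, and the list was drawn up with their raw counts at 24 h against those at 6 h in view, so their own differences between the time points are given as a description with no test. TPC1 is an established line from a human papillary thyroid carcinoma and carries the CCDC6-RET rearrangement. All 4 libraries came from TPC1 cells in DMEM with 10% FBS that were exposed to the RET inhibitor BLU6864, for 6 h in 2 libraries and for 24 h in 2 libraries, the latter marked as a re-analysis in the labels. The labels give a dose of 100 µM and the methods 100 nM, and vehicle-treated cells were not analysed here, so the effect of the inhibitor and that of time in culture cannot be told apart. The re-analysis mark is on both 24 h libraries and on neither 6 h library. Any difference in origin or processing behind it therefore cannot be told apart from the time point either. No source says whether the replicates were separate cultures, so the standard errors and p-values measure only the spread between libraries, which may be technical.

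Matricellular proteins are secreted into the matrix but serve mainly to adjust how cells adhere, spread, and receive growth factor signals, whereas fibronectin and fibrillin build fibers. Fibronectin is bound by integrins, which link the matrix to the actin cytoskeleton through focal adhesions. Thrombospondin 1 activates latent TGF-beta, binds CD36 and CD47, and restrains angiogenesis, and a raised fibronectin transcript is a well-known feature of papillary thyroid carcinoma.

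Libraries held between 23917056 and 27457040 counts. Counts were scaled by the TMM method, and a normalized count is a raw count brought to the average scaled size of the 4 libraries. Across the 12876 genes with enough counts, the median log2 fold change was 0.0029. The cutoffs were a log2 fold change past 0.5 or -0.5 with an unadjusted P under 0.01 in edgeR's quasi-likelihood test, and 4516 genes passed. The methods of the paper state only the lower cutoff of -0.5, with P under 0.01 in DESeq2, and it was used here in both directions. Among thyroid markers, PAX8 had between 19124 and 22978 counts in a library, and FOXE1 and TG were also present, but NKX2-1 and TSHR had 0 counts in every library. Of the epithelial markers, keratin genes were present, whereas EPCAM had at most 11 counts and CDH1 at most 8. The 8 fibroblast markers summed to 568 and 659 counts at 6 h and to 279 and 330 at 24 h, with COL1A2 and DPT at 0. PDGFRB (303 and 373 counts at 6 h, 111 and 138 at 24 h) and COL1A1 (218 and 237, then 63 and 95) carried this lower sum. LUM (39 and 40, then 71 and 66) and the scarce THY1 (0 and 3, then 22 and 28) went the other way. The 6 leukocyte markers summed to at most 9 counts. The 4 endothelial markers measured summed to 509 and 536 counts at 6 h and to 55 and 29 at 24 h, most of them from KDR, with CDH5 at 1 count or fewer. In RNA from whole cultures, fewer cells of a type and less RNA per cell cannot be told apart, and the part of other cells in the values was not tested.

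Of the 10 genes, 9 passed the filter on low counts, and POSTN was not detected. With the cutoffs given above, 3 of the 9 would be called higher at 24 h (THBS1, SPARC, and THBS3), against 17.4% of all genes tested. Lower would be 1 (THBS2), against 17.7%, so 4 in either direction against 35.1%. Both 24 h libraries lay above both 6 h libraries in 5 genes and below them in 4, where 41.0% and 40.8% of all genes tested were separated in these directions, and 81.8% in either. With an adjusted P under 0.05 and no limit on the fold change, the counts would be 5 and 4, against 33.0% and 32.6% of all genes. These counts follow from how the list was made and are given only to place the genes. Their median log2 fold change was 0.37, and without 24 h replicate 2 it was 0.10. The 10 genes took 1.08% and 1.03% of all counts at 6 h and 1.24% and 1.60% at 24 h, and FN1 alone made up between 72.0% and 82.3% of that share.

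**Figure D1:**
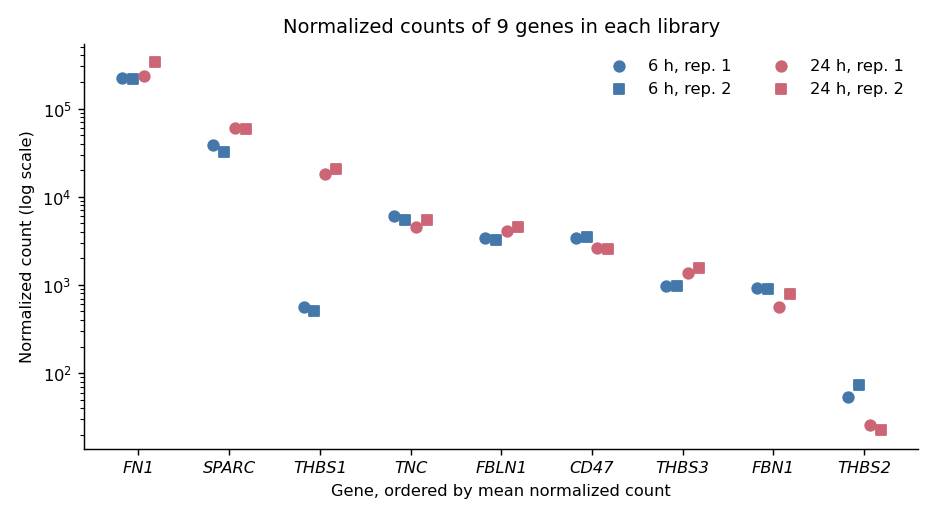
Normalized counts (log scale) of the 9 detected genes in each of the 4 libraries, with 6 h in blue, 24 h in red, circles for replicate 1, and squares for replicate 2. THBS1 moved from 559 and 510 to 18106 and 20866, THBS2 from 54.0 and 73.9 to 25.9 and 22.4, and the other 7 genes differed by at most 1.69-fold between the means fitted for each time point. POSTN had no counts and is not drawn.

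THBS1 (ENSG00000137801), on chromosome 15 of hg19 from 39873280 to 39891667, encodes thrombospondin 1, a trimeric glycoprotein that activates latent TGF-beta. It had 559 and 510 normalized counts at 6 h and 18106 and 20866 at 24 h. The levels at the 2 time points were far apart, with means of 535 ± 34.5 (SD, n = 2) and 19486 ± 1952. The fitted log2 fold change was 5.19 (standard error 0.0995), a 36.5-fold higher level at 24 h. Among the 10747 tested genes that averaged 100 or more normalized counts, 3 had a larger log2 fold change. With each library left out in turn, the log2 fold change of THBS1 lay between 5.09 and 5.29. By raw counts THBS1 stood at rank 7556 and 7824 of the table at 6 h and at rank 172 and 135 at 24 h.

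THBS2 (ENSG00000186340), on chromosome 6 from 169615875 to 169654139, encodes thrombospondin 2, the closest paralog of THBS1 and likewise trimeric and antiangiogenic. It was scarce, with 50 and 77 raw counts at 6 h and 26 and 23 at 24 h. The normalized counts were 54.0 and 73.9 at 6 h and 25.9 and 22.4 at 24 h, so both later libraries lay below both earlier ones. On the log2 scale the fold change was -1.41 (standard error 0.259), opposite in sign to that of THBS1. Its size depended on 6 h replicate 2, without which it was -1.16. Counting error alone is large at this depth, with a share of the counts of 6 h replicate 1 of 0.000209% (95% Wilson interval 0.0001586% to 0.0002756%).

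THBS3 (ENSG00000169231), on chromosome 1 from 155165379 to 155178842, encodes a pentameric thrombospondin found in cartilage and bone. It had 978 and 960 normalized counts at 6 h and 1356 and 1538 at 24 h. Replicates at 6 h were nearly equal, and both 24 h values were higher. The log2 fold change was 0.58 (standard error 0.0776), a 1.49-fold higher level, and without 24 h replicate 2 it was 0.49, just under the cutoff. The 5′ end of THBS3 shares 353 bases with MTX1, whose counts were 716 and 882 at 6 h and 800 and 841 at 24 h, and whose log2 fold change was -0.00 (standard error 0.0825). How the counting assigned reads in this stretch is not given in the sources used here, so counts of both genes are uncertain there.

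Measured per kilobase of the MANE Select transcript, the reference transcript of each gene, the 3 thrombospondins changed places. At 6 h, THBS3 held 79.3% and 79.6% of their summed level, THBS1 18.3% and 17.1%, and THBS2 2.41% and 3.38%. By 24 h, THBS1 held 84.2% and 84.5%, THBS3 15.6% and 15.4%, and THBS2 0.165% and 0.124%. The level of THBS1 over that of THBS3 was 0.231 and 0.215 at 6 h and 5.39 and 5.48 at 24 h, with little difference between replicates. Their summed level rested on THBS1 and went from 392 and 384 to 2760 and 3172 normalized counts per kilobase.

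**Figure D2:**
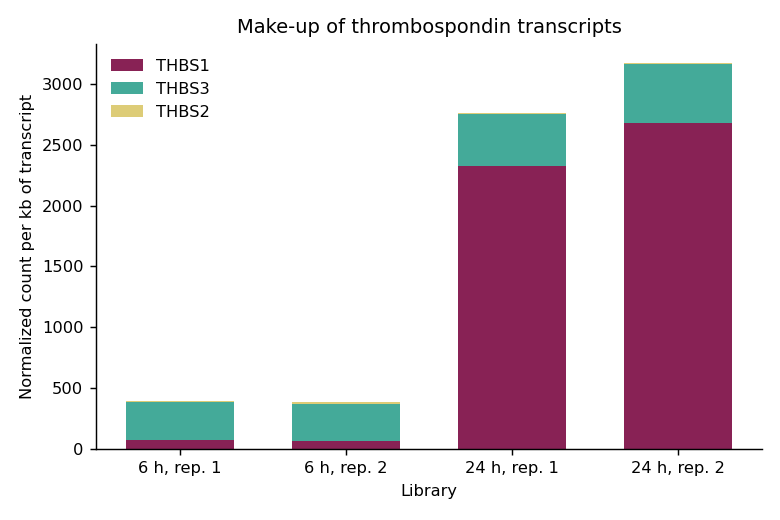
Stacked bars of normalized counts per kilobase of transcript for THBS1, THBS3, and THBS2 in each library. THBS3 makes up most of the 6 h bars, which reach 392 and 384, and THBS1 most of the 24 h bars, which reach 2760 and 3172, while THBS2 is barely visible.

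Promoter sequence was available from RefSeq (GRCh38.p14) for all 10 genes, with 2 start sites for THBS3. The 250 bases before the start site are printed here for THBS1 and its paralog THBS2, whose levels differed in opposite directions, and for FN1 and SPARC, the most abundant of the genes. They were searched on both strands for TATAA (the TATA box), CCAAT (bound by NF-Y), GGGCGG (the GC box), GGAATG (the core bound by TEAD factors), GCGTGGGCG (bound by EGR1), TGANTCA (bound by AP-1), and TGACGTCA (bound by CREB), and capitals mark each match, with GCGTGGGCG overlapping a GGGCGG in THBS1. The windows lie at chr15:39580829-39581078 (plus strand), chr6:169253847-169254096 (minus), chr2:215436069-215436318 (minus), and chr5:151686916-151687165 (minus).
THBS1: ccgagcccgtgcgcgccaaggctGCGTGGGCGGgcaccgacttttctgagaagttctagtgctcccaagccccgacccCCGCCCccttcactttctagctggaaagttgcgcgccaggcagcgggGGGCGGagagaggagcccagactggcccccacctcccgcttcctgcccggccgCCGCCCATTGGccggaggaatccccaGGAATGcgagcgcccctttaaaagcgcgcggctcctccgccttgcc
THBS2: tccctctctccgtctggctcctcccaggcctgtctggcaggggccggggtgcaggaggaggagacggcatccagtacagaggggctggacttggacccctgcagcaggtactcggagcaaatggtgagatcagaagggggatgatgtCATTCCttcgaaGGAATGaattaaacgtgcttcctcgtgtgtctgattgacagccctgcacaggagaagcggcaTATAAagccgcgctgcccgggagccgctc
FN1: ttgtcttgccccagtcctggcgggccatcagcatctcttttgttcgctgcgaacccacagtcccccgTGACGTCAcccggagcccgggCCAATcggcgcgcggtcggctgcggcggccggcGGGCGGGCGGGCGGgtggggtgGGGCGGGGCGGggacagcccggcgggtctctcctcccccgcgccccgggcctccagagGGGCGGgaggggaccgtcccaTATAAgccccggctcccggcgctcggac
SPARC: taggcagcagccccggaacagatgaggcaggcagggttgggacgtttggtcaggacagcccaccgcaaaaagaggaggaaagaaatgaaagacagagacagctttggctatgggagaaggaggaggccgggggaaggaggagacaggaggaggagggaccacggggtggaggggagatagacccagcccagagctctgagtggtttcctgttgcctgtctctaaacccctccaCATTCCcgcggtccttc
THBS1 had GGAATG 46 bases before its start site, THBS2 had it at 103 and 91 bases on opposite strands, SPARC at 17, and FBN1 at 58. This motif was in 11.9% of 35116 promoter windows of the same length. GCGTGGGCG, at 227 bases, was found in THBS1 alone among the 11 windows of the 10 genes and in 0.720% of all windows, and TGACGTCA in FN1 alone among them, at 183 bases, and in 1.65% of all. TATAA, found in 18.9% of all windows, lay at 28 bases in FN1, 29 in THBS2, 27 in TNC, and 29 in POSTN. The POSTN window had 3 further matches. TGANTCA was matched in the POSTN window only among the 11, and in 6.57% of all windows. GGGCGG was in 7 of the 11 windows, against 42.6% of all, and CCAAT in 3, against 32.0%. The windows with GGAATG thus belong to genes that were higher (THBS1 and SPARC) and lower (THBS2 and FBN1) at 24 h. A match describes the letters only, and binding was not measured.

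FN1 (ENSG00000115414), on chromosome 2 from 216225163 to 216300895, was the gene with the most raw counts in every library. Fibronectin forms the fibrils to which cells attach through the integrin of ITGA5 and ITGB1. It had 224207 and 217335 normalized counts at 6 h and 235844 and 333999 at 24 h. The 24 h replicates differed from each other by 1.42 times, and replicate 1 lay only a little above the 6 h libraries. The log2 fold change was 0.37 (standard error 0.119). Without 24 h replicate 2 it was 0.10 (standard error 0.170), and without 24 h replicate 1 it was 0.60 (standard error 0.174). Its share of all counts was 0.868% and 0.844% at 6 h and 0.894% and 1.25% at 24 h, where the 95% Wilson interval of the last value, 1.246% to 1.254%, is far narrower than the difference between replicates. Such intervals cover counting error only. Splice forms of FN1 cannot be read from counts per gene.

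SPARC (ENSG00000113140), on chromosome 5 from 151040657 to 151066726, encodes osteonectin, a collagen-binding matricellular protein that loosens cell adhesion. It had 38139 and 32136 normalized counts at 6 h and 60438 and 58445 at 24 h. Groups were well separated, although the 6 h replicates differed more than those at 24 h. The log2 fold change was 0.76 (standard error 0.0910), a 1.69-fold higher level, and leaving out single libraries moved it between 0.64 and 0.89. Per kilobase, the level of SPARC was 0.414 and 0.359 of that of FN1 at 6 h and 0.623 and 0.425 at 24 h.

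TNC (ENSG00000041982), on chromosome 9 from 117782806 to 117880536, encodes tenascin C, which interferes with adhesion to fibronectin and is abundant in tumor stroma. The normalized counts were 5973 and 5515 at 6 h and 4593 and 5473 at 24 h. Here 24 h replicate 2 was almost level with 6 h replicate 2, and the log2 fold change was only -0.19 (standard error 0.0801). It was -0.07 without 24 h replicate 1 and -0.32 without 24 h replicate 2. POSTN (ENSG00000133110), on chromosome 13 from 38136720 to 38172981, encodes periostin, a matrix protein made mostly by fibroblasts. It had 0 counts in all 4 libraries. A count of 0 allows up to 3 counts, or a share of at most 1.25e-05% in the shallowest library, so no difference between the time points could be detected at this depth.

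CD47 (ENSG00000196776), on chromosome 3 from 107762145 to 107809872, encodes a cell surface receptor that binds thrombospondin 1 and, through SIRPA on phagocytes, signals against engulfment. It had 3426 and 3477 normalized counts at 6 h and 2589 and 2533 at 24 h. Replicates were close and the groups clearly apart, and the fitted log2 fold change was -0.43 (standard error 0.0697), a 1.35-fold lower level. CD47 thus differed in the direction opposite to that of its ligand THBS1.

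FBLN1 (ENSG00000077942), on chromosome 22 from 45898118 to 45997015, encodes fibulin 1, which binds fibronectin and basement membrane proteins. It had 3403 and 3201 normalized counts at 6 h and 4072 and 4511 at 24 h. Both later values were higher, and the log2 fold change was 0.38 (standard error 0.0738). FBN1 (ENSG00000166147), on chromosome 15 from 48700503 to 48938046, encodes fibrillin 1, the main component of microfibrils, which store latent TGF-beta. It had 912 and 892 normalized counts at 6 h and 559 and 792 at 24 h. The log2 fold change was -0.42 (standard error 0.106), but it was -0.18 without 24 h replicate 1 and -0.68 without 24 h replicate 2. As for FN1, the value of FBN1 was 1.42 times higher in 24 h replicate 2 than in 24 h replicate 1.

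**Figure D3:**
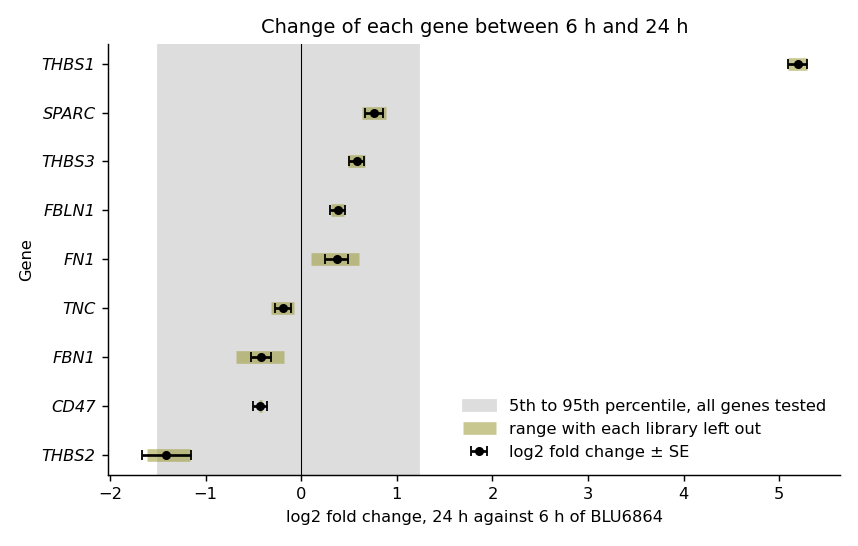
Log2 fold change of each of the 9 detected genes between 6 h and 24 h with its standard error (black), the range with each library left out (olive bars), and the 5th to 95th percentile of all genes tested (gray, -1.50 to 1.23). THBS1 at 5.19 lies far outside the gray range, and the widest ranges around small changes are those of FN1 (0.10 to 0.60) and FBN1 (-0.68 to -0.18).

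The difference between 24 h replicates was larger in FN1 and FBN1 than in nearly all other genes. Of 10662 genes that averaged 100 or more normalized counts and had a transcript length, 99.4% differed less between the 24 h replicates than FN1 did, and 99.4% less than FBN1. At 6 h the same share was 27.8% for FN1 and 20.2% for FBN1. TNC, with 92.3% of genes below it at 24 h, also had its higher value in replicate 2, as did THBS1, THBS3, and FBLN1, while SPARC and CD47 differed by at most 0.05 on the log2 scale. The transcripts of FN1, TNC, and FBN1 are long, with 8390, 8500, and 11609 bases, as is that of THBS1 with 7789. Genes with transcripts of 7000 to 10000 bases, the class of FN1, TNC, and THBS1, had a median difference (log2 of replicate 2 over replicate 1) of 0.028 at 24 h and -0.026 at 6 h. In the class of FBN1, with 10000 bases or more, it was 0.051 at 24 h and 0.049 at 6 h, against -0.003 and -0.015 over all genes. Replicate 2 was higher at 24 h in 63.3% of genes with 10000 bases or more and 60.0% of those with 7000 to 10000. Over all genes the share was 48.9%. At 6 h these shares were 61.6%, 42.0%, and 45.4%. The part of transcript length in the values of FN1 and FBN1, each at 0.50 at 24 h, was not tested.

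**Figure D4:**
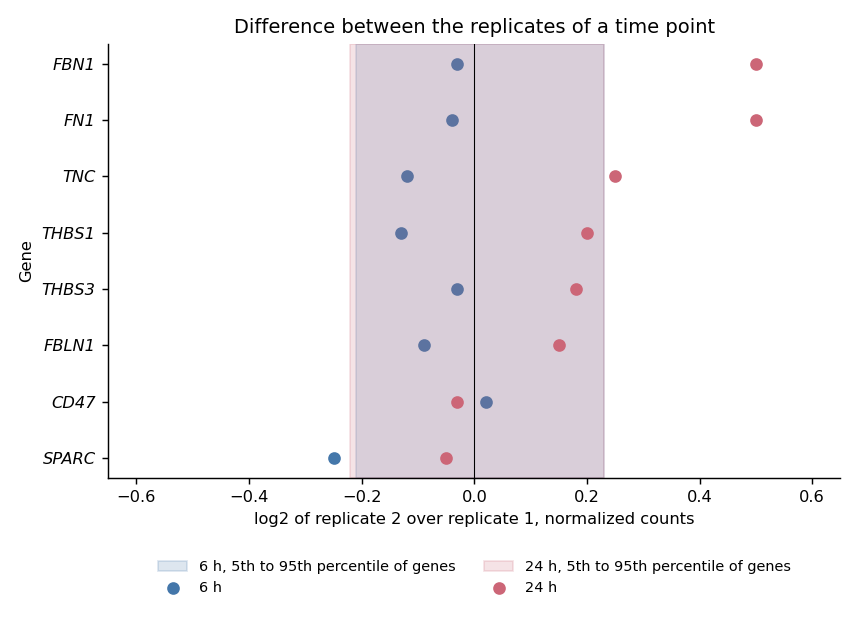
Log2 of replicate 2 over replicate 1 in normalized counts for the 8 genes with a mean of at least 100, at 6 h (blue) and 24 h (red), with the 5th to 95th percentile of genes shaded (-0.21 to 0.23 at 6 h, -0.22 to 0.23 at 24 h). FN1 and FBN1 at 24 h both stand at 0.50, far outside the shaded range. TNC at 24 h (0.25) and SPARC at 6 h (-0.25) lie just outside it.

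Levels of different genes were compared per kilobase of transcript. The order of levels at 6 h was FN1 (26723 and 25904 normalized counts per kilobase), SPARC (11052 and 9312), FBLN1 (1172 and 1102), TNC (703 and 649), CD47 (647 and 657), THBS3 (311 and 305), FBN1 (78.6 and 76.9), THBS1 (71.8 and 65.5), and THBS2 (9.47 and 13). Only TNC and CD47 could not be ordered there, since their replicates overlapped. At 24 h, THBS1 had moved up to the third place with 2325 and 2679, above FBLN1 with 1402 and 1554. CD47 (489 and 479) and THBS3 (431 and 489) overlapped at 24 h, whereas TNC (540 and 644) lay above both. The level of THBS1 was 0.269% and 0.253% of that of FN1 at 6 h and 8.27% and 6.73% at 24 h.

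The genes around these proteins were taken from 8 lists and tested with edgeR's quasi-likelihood test over all 12876 genes, where the largest Benjamini-Hochberg adjusted P of any gene past the cutoffs was 0.017. The lists, like the 10 genes, were chosen with earlier results of these data known, so the counts per list are a description and not independent support. Each count below is to be read against the 17.4% of all genes tested that were called higher, the 17.7% called lower, and their median of 0.0029. Of 10 other matricellular and adhesive glycoproteins tested, 6 rose and 3 fell, with a median log2 fold change of 1.04. WISP2 (3 and 3 counts at 6 h, 22 and 20 at 24 h) and WISP1 passed the filter on low counts only through the time point where they were high. With at least 10 counts required in every library, 5 rose and 2 fell. CYR61 (CCN1), an integrin ligand, rose from 818 ± 63.1 to 10227 ± 734 normalized counts (SD, n = 2), a log2 fold change of 3.65, NOV (CCN3) rose by 3.01, and SPP1 (osteopontin) rose by 1.69 from 23348 ± 737 to 75334 ± 2340. The 3 genes that fell were ECM1 (-0.66), EDIL3 (-0.59), and WISP1 (-4.43), which had 43 and 67 counts at 6 h and 1 and 4 at 24 h. Without 6 h replicate 1, EDIL3 was at -0.46, short of the cutoff, which left 2 that fell. Of 5 relatives of the thrombospondins, tenascins, and SPARC tested, THBS4 and TNXB rose from at most 11 counts at 6 h, and neither passed with DESeq2, while FSTL1 fell by 0.63. TNXB, with 6 and 7 counts at 6 h, passed the filter on low counts only through its 24 h libraries.

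Among the other fibulin, fibrillin, and elastic fiber genes, 5 of 20 rose and 5 fell (25.0% each), with a median of 0.28. FBN3, among those that fell, had 14 and 17 counts at 6 h and 5 and 5 at 24 h. It passed the filter on low counts only through its 6 h libraries. With at least 10 counts required in every library, 4 fell. EFEMP1 (1.57), LTBP2 (1.56), and the crosslinking enzyme LOXL4 (1.39) rose, while LTBP1 (-1.32), MFAP2 (-0.53), and FBN2 (-0.52) fell. FBN2, like its paralog FBN1, was higher in 24 h replicate 2, with 941 counts against 581 in replicate 1, and its log2 fold change was -0.23 without 24 h replicate 1 and -0.89 without 24 h replicate 2. Its adjusted P was 0.000405 in edgeR and 0.156 in DESeq2, where the log2 fold change was -0.53. The call was also lost with upper quartile scaling (-0.49) and without 6 h replicate 2 (-0.48). Of 4 partners of thrombospondins and CD47 tested, SIRPA rose (0.79), and the receptor LRP1, the chaperone CALR, and CACNA2D1 had log2 fold changes of -0.11, -0.28, and -0.46. The 24 h replicates of LRP1 were far apart, with 4184 and 7887 counts. CD36 had at most 5 counts in a library.

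Of 9 integrin and syndecan genes tested that bind fibronectin or matricellular proteins, 3 rose and 2 fell, with a median of 0.21. ITGA5 (-0.87) and ITGB1 (-0.55), the subunits of the main fibronectin receptor, fell, and ITGB1 was at -0.45, short of the cutoff, without 6 h replicate 1. ITGB8 (2.32), whose product activates latent TGF-beta, and SDC4 (1.14) rose, as did the scarce ITGA9. ITGA9 passed the filter on low counts only through its 24 h libraries, and with at least 10 counts required in every library 2 genes rose. Focal adhesion genes had 8 of 12 higher and 0 lower, with a median of 0.72, led among abundant genes by ZYX (1.0), BCAR1 (0.93), and PARVA (0.91). The 4 that were not called, PTK2, LPP, ILK, and FERMT2, had log2 fold changes of 0.43, 0.34, 0.09, and 0.09, so at an unadjusted P under 0.05 the count of lower genes was also 0, as it was in DESeq2. Of 14 proteases and regulators tested, 4 rose and 5 fell, with a median of -0.32. Those that rose were MMP2 (2.06), TIMP2 (1.72), MMP7 (1.32), and ADAMTS1 (1.0), which cleaves thrombospondins. Those that fell were MMP3 (-3.21), MMP9 (-2.57), PCOLCE (-1.51), TIMP1 (-1.4), and PLAUR (-1.12). Of 8 TGF-beta ligands, receptors, and feedback genes, TGFB2 (1.46) and SMAD7 (0.99) rose, and TGFBR3 (-1.30) and TGFBR2 (-0.54) fell.

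**Figure D5:**
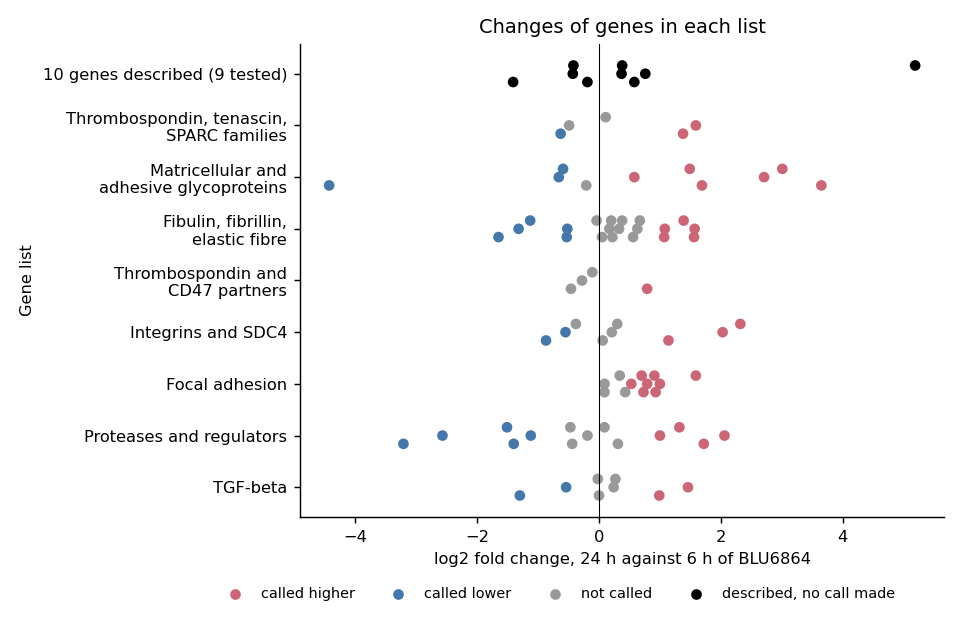
Log2 fold change between 6 h and 24 h for each tested gene of the 8 lists, red where called higher, blue where called lower, and gray where not called, with the 9 detected genes described here in black. The focal adhesion genes all lie at or above 0.09, and the matricellular glycoproteins spread from -4.43 to 3.65.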

How the data were processed

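Total RNA of TPC1 cells after 6 h or 24 h of BLU6864 was sequenced with 2 libraries per time point. The authors aligned reads with STAR (version 2.3 to hg19 in the submitters' processing notes, a later version in the methods of the paper). The counting program and its strand setting are not given in the sources used here. The deposited table holds the raw count of reads on each of 20372 genes, the same count divided by a size factor per library as a normalized signal, and the authors' DESeq2 comparison as a log2 fold change, its error and Wald score, and p-values. The deposited normalized signal and comparison were not used. All of its per-sample columns were mapped to a library.

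The test was run on the raw counts in edgeR 4.0.16 (R 4.3.3). Filtering with filterByExpr left 12876 genes, followed by TMM scaling and the quasi-likelihood test with time as the factor. The standard error is the size of the log2 fold change over the square root of F. DESeq2 1.42.0 was an alternative. The cutoffs were a log2 fold change past 0.5 or -0.5 with an unadjusted P under 0.01. The procedure was tested on simulated data. Replicates differed by more than sampling noise (chi-square over its degrees of freedom, 10.3 for the 6 h pair and 7.87 for the 24 h pair). Transcript lengths are those of the MANE Select or canonical transcript in GENCODE v44, and hg19 positions were not mixed with those of GRCh38. Plots were drawn with matplotlib 3.10.9.

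The genes described and the lists were chosen with earlier results of these data known. All 10 genes are named, as are, from each list, up to 3 called genes with the largest rise and up to 3 with the largest fall among genes averaging 100 or more normalized counts, the gene of the table that overlaps THBS3, and the 3 genes nearest in profile to each of 2 described genes. WISP1, WISP2, THBS4, TNXB, FBN3, ITGA9, CD36, LRP1, CALR, CACNA2D1, PTK2, LPP, ILK, FERMT2, MMP7, TIMP1, PLAUR, LUM, and THY1 were named after their values were seen.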

Additional observations from a re-analysis of the deposited data

How the results depend on the processing

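With each library left out, which leaves 1 library in a time point that is assumed to vary like the others, between 2131 and 2236 genes were higher and between 2180 and 2222 lower, against 2238 and 2278. The log2 fold change ranged from 5.09 to 5.29 in THBS1, -1.61 to -1.16 in THBS2, 0.49 to 0.67 in THBS3, 0.10 to 0.60 in FN1, 0.64 to 0.89 in SPARC, -0.32 to -0.07 in TNC, -0.44 to -0.41 in CD47, 0.31 to 0.45 in FBLN1, and -0.68 to -0.18 in FBN1, and their median from 0.10 to 0.45. Of the 10 genes, 2 to 4 would be called higher and 1 to 2 lower, the latter without 24 h replicate 2. None of the 9 detected genes changed sign. Called genes ranged from 0 to 2 (higher) among relatives of the thrombospondins, where 6 h replicate 2 decided, 2 to 3 (lower) among matricellular glycoproteins, 3 to 5 (lower) among elastic fiber genes, with 3 without 24 h replicate 1 or 6 h replicate 2, 0 to 2 (lower) among thrombospondin partners, with 2 without 24 h replicate 2, and 1 to 2 (lower) among integrins, with 1 without 6 h replicate 1.

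DESeq2 gave 0 higher relatives of the thrombospondins and 3 lower elastic fiber genes in place of 5. A minimum of 10 counts in every library gave 1 higher relative, 5 higher and 2 lower matricellular glycoproteins, 4 lower elastic fiber genes, and 2 higher integrins. Library size alone gave 1 lower partner and -0.47 for CD47, and upper quartile scaling -0.40. An adjusted P under 0.05 with no limit on the fold change gave 4247 higher and 4196 lower genes, 5 higher and 4 lower of the 9 detected genes, 2 lower relatives, 2 lower partners, 5 higher integrins, and 8 lower proteases. The cause of these moves was not tested beyond the construction of each alternative. The time points share replicate numbers 1 and 2, whose meaning no source gives, and the deviations of same-numbered libraries correlated at 0.0691. A replicate block in the fit gave 2283 higher and 2313 lower genes, and the log2 fold change of FN1 was 0.35 and that of THBS2 -1.40, with the other 7 as before. THBS2 and POSTN are limited by depth.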

Other observations

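The profiles most like those of THBS1 and CD47, which among the described genes with a mean normalized count of at least 100 had the largest positive and negative log2 fold change, were sought by the Euclidean distance of centered log2 CPM over the 4 libraries among 10739 other genes. PDZK1 (distance 0.529), SCN9A (0.549), and CLDN2 (0.654) lay nearest to THBS1. They were far less abundant. PDZK1 had 9.72 and 8.63 normalized counts at 6 h and 328 and 275 at 24 h. SCN9A had 4.32 and 6.72, then 223 and 212, and CLDN2 had 8.64 and 3.84, then 270 and 223. These genes reached a mean of 100 only through the 24 h libraries, where they were high, so their likeness to THBS1 rests on very low 6 h counts. ARPC2 (0.0136), AP1S1 (0.0139), and POLR2K (0.0239) lay nearest to CD47, with log2 fold changes of -0.43, -0.44, and -0.44. With 4 libraries, such a distance mostly measures a like size of change.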
